A study of Homo sapiens with 4 samples.

Results

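The clustered histone genes encode the linker histone H1 and the core histones H2A, H2B, H3 and H4, and most of them lie close together in groups on chromosomes 6 and 1. They were taken here as every gene whose current symbol starts with H1-, H2AC, H2BC, H3C or H4C followed by a number and that had at least 1 count in any library. This gave 69 genes out of 46660 gene identifiers. They comprised 67 protein-coding histone genes, the pseudogene *H2BC20P* and *H1-10-AS1*, an RNA antisense to *H1-10*. A further 24 symbols match the same prefix but had no count here, 7 of them protein-coding (*H1-7*, *H1-8*, *H2AC1*, *H2BC12L*, *H4C6*, *H4C7* and *H4C11*).

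RNA-seq was performed on 4 libraries from a pair of established human glioblastoma cell lines, U87MG and U251MG. Each line gave 1 library of cells carrying the pGreen empty vector (control, titled shControl, genotype CTL) and 1 library of cells carrying shRNA against *FLI1* (shFLI1). *FLI1* encodes a transcription factor of the ETS family. The paper describes lentiviral infection and puromycin selection, after which mixed stable cells were collected for RT-qPCR and western blotting. Its RNA-seq section does not repeat this. It lists more than 1 shRNA against *FLI1* and does not say which of them the sequenced cells carried. The RNA had been bound by poly-T beads, which capture RNA with a poly(A) tail. With 1 library per arm there is no spread between replicates within a cell line, so values within a line are given with 95% intervals that cover counting error only. In such bulk cultures, fewer cells making an RNA and less RNA per cell cannot be told apart.

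Replication histone mRNAs are made in bulk while DNA is copied, when new chromatin has to be packaged. Unlike other mRNAs of animal cells they usually end in a conserved stem-loop in place of a poly(A) tail, and the stem-loop binding protein SLBP handles their maturation, export and translation. Some histone genes are instead transcribed outside S phase and give polyadenylated mRNA, and several clustered genes can give both forms. H2A pairs with H2B and H3 with H4 in the octamer on which DNA is wound, and H1 binds the DNA between octamers.

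Because the libraries were selected for poly(A) tails, the 3′ ends of the genes are shown first. On the genome, 62 of the 67 genes held a match to the histone 3′ stem-loop on their own strand, searched by pattern up to 100 bases past the gene end, and the 5 without one included *H1-10*, *H2BC10*, *H3C6* and *H4C13*. There were 7 distinct stem-loops of 16 bases, of which the most common was found in 39 genes, and the H4 genes used a pair of their own, found in 7 and 4 genes. The sites below, 26 bases each from GRCh38 with the stem-loop in capitals, belong to the genes on which the results turn and to bearers of other stem-loops.
H2AC25: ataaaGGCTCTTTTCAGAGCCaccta
H2BC26: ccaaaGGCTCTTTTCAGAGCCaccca
H2BC21: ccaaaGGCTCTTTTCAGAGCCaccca
H2BC3: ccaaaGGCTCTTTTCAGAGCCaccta
H3C14: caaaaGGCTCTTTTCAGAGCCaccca
H3C15: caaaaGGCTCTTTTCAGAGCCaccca
H2AC18: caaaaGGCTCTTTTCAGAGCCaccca
H2BC6: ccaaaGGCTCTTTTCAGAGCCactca
H2AC11: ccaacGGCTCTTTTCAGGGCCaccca
H4C14: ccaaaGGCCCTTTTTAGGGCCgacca
H4C2: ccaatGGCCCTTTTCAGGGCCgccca
The *H2AC25* site lies at chr1:228457364-228457389 on the minus strand, that of *H2BC26* at chr1:228458533-228458558 on the plus strand, that of *H2BC21* at chr1:149886183-149886208 on the minus strand and that of *H2BC3* at chr6:26043227-26043252 on the minus strand. *H3C14*, *H3C15* and *H2AC18* share one and the same site sequence, whereas *H4C14* and *H4C2* carry the H4 loops.

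In 56 of the 62 genes the annotated gene ended within 18 bases of the stem-loop. The other 6 ran on for between 1729 bases (*H2BC21*) and 29196 bases (*H2BC18*) beyond it. The poly(A) signal AATAAA stood in the last 50 bases of 9 genes, among them *H1-10*, *H2BC4*, *H2BC5*, *H2BC9*, *H2BC12*, *H2BC21*, *H3C6* and *H4C15*. The annotated *H2BC9* gene ended 5 bases after its stem-loop, so its AATAAA lay before the stem-loop and not beyond it. All 67 genes had a single exon in their canonical transcript. Counts of genes that share sequence are uncertain, since the estimated counts can be divided between copies. All 100-base windows of *H2AC18* also occurred in *H2AC19*, as did 99.1% of those of *H3C14* in *H3C15* and all of those of *H4C14* in *H4C15*. The annotated span of *H3C4* holds all of *H2AC7*, and that of *H4C15* all of *H2BC20P*.

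*FLI1* itself fell in both knockdown libraries, from 9.34 to 2.34 CPM (reads as a share of the library, scaled by the TMM method) in U87MG and from 12.1 to 3.71 CPM in U251MG (shared log2 fold change -1.85 ± 0.25 SE, adjusted p = 0.00698, edgeR's quasi-likelihood test). Total counts were 12229780 and 21250153 in U87MG control and shFLI1, and 18108612 and 28891055 in U251MG. Both shFLI1 libraries were thus deeper than the control of their line. The TMM factors were 0.9363 and 1.047 in U87MG and 0.9845 and 1.036 in U251MG. Depth went with arm in both lines, and its part in the differences below was not tested. The glioblastoma markers *VIM*, *NES*, *CD44*, *SOX2* and *GFAP* were present in all 4 libraries, *OLIG2*, *CHI3L1* and *S100B* had at most 15 counts in any, and *PTPRC* and *PECAM1*, which mark blood and endothelial cells, had at most 5. *GFAP* had the largest shared difference of these markers, with log2 fold changes of 1.32 and 2.19 (adjusted p = 0.00783, edgeR's quasi-likelihood test). *NES* had 0.51 and 0.70 (adjusted p = 0.107, edgeR's quasi-likelihood test).

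The summed level of the histone genes in these poly-T selected libraries was lower in shFLI1 than in control cells of both lines. Histone mRNA that ends in the stem-loop has no tail for the beads to bind. The sums therefore do not measure total histone mRNA, which was not measured here. The 67 genes summed to 10375 CPM in U87MG control and 7697 CPM in U87MG shFLI1, a log2 ratio of -0.43 (interval -0.44 to -0.42). In U251MG the sums were 11008 CPM in control and 9245 CPM in shFLI1, a log2 ratio of -0.25 (interval -0.26 to -0.24). These sums were 0.971% and 0.806% of the counts in U87MG, and 1.08% and 0.958% in U251MG. The size of the difference depended on the scaling, and with total counts in place of TMM the log2 ratios were -0.27 and -0.18. A pair of very abundant identifiers, looked up after values were seen, each took between 2.46% and 6.62% of the counts of a library. LOC105378179 had log2 fold changes of -0.89 and -0.55 in U87MG and U251MG, and the other, which has no symbol, had -0.77 and -0.19. Neither passed the shared test described below (adjusted p = 0.339 and 0.57, edgeR's quasi-likelihood test), and their part in the histone sums was not tested.

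The 4 core histone types had lower sums in shFLI1. In U87MG they differed little, with log2 ratios of -0.45 for H2A, -0.43 for H2B, -0.45 for H3 and -0.40 for H4. In U251MG they spread more, with -0.28 for H2A, -0.33 for H2B, -0.26 for H3 and -0.14 for H4. The H1 genes are described one by one, since few of them made up most of the H1 sum.

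**Figure D1:**
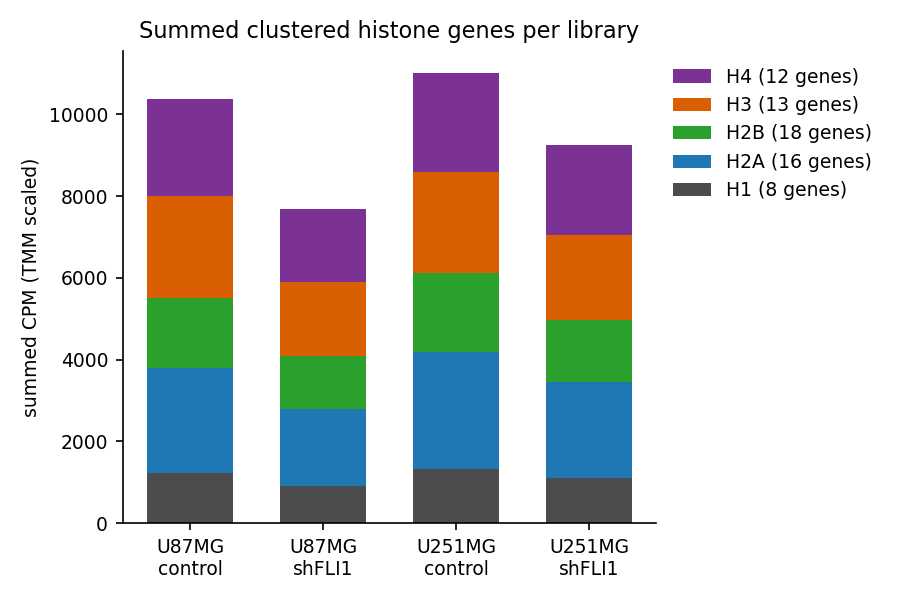
Stacked bars of the TMM-scaled CPM summed over the 67 protein-coding histone genes in each of the 4 libraries, with 1 segment per histone type. Both shFLI1 bars (7697 and 9245 CPM) are shorter than the control bars of their cell line (10375 and 11008 CPM).

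Single genes were compared within each line on log2 CPM with a prior count of 2. Genes were tested where either library of the line reached 10 counts, and called at more than 2-fold with an exact binomial test on reads below 0.05. Such a read test says nothing of the spread between cultures, so its p-values are not given. Of the 67 genes, 61 could be tested in U87MG and 60 in U251MG. The 6 left out in U87MG were *H1-1*, *H1-6*, *H2BC1*, *H4C9*, *H4C12* and *H4C13*. In U251MG *H1-3* and *H2BC6* were also left out, and *H1-6* (13 and 12 counts) was tested.

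In U87MG, 55 of the 61 tested genes had a log2 fold change below 0 and the median was -0.34, against a median of 0.06 over all 17355 genes tested, of which 44.4% were below 0. In U251MG, 40 of 60 were below 0 and the median was -0.23, against 0.04 over all 18222 genes tested, of which 45.6% were below 0. Counting intervals lay wholly below 0 for 49 of 61 genes in U87MG, where they did so for 23.3% of all genes tested, and wholly above 0 for 2 genes, against 26.7%. In U251MG they lay below 0 for 35 of 60 genes, against 23.1% of all, and above 0 for 17 genes, against 24.6%. Most histone genes have many reads, which narrows their intervals. Among genes with at least 100 counts in both libraries, 94.6% of 56 histone genes were below 0 in U87MG and 66.1% of 56 in U251MG, compared with 52.2% of 9871 and 50.8% of 11059 genes in all. With total counts as the scaling, 45 of the 61 genes were below 0 in U87MG and 39 of 60 in U251MG, while the median of all genes tested moved to 0.22 and 0.11.

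Few of these differences reached 2-fold. In U87MG 6 of 61 genes were called lower (among them *H2BC3*, *H3C14*, *H1-3*, *H2AC25* and *H2BC26*) and 1 was called higher (*H2AC19*). Over all genes tested, 4.33% were called lower and 7.48% higher, and with total counts as the scaling 585 genes were called lower and 1715 higher, in place of 751 and 1299. In U251MG 3 of 60 genes were called lower (among them *H2BC3* and *H2AC25*) and 1 higher (*H3C6*), against 4.06% and 4.44% of all genes. The 3 genes called lower in U251MG were called lower in U87MG too, whereas 1.45% of all genes that could be tested in both lines were lower in both. The share of calls in U251MG is thus near the background.

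**Figure D2:**
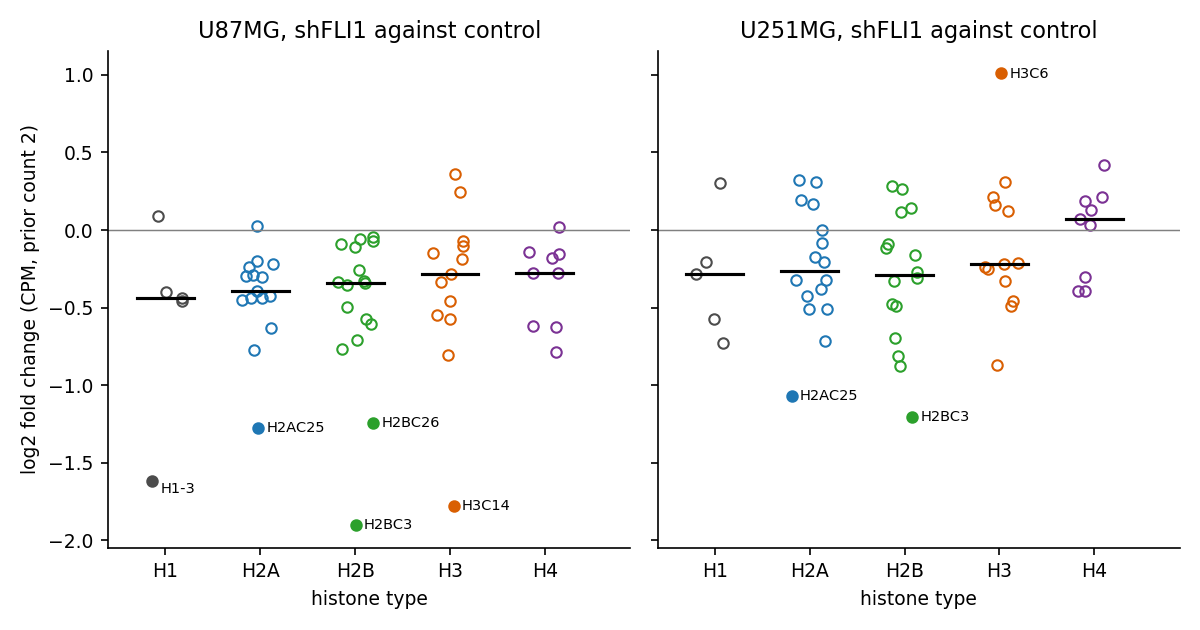
Log2 fold change of shFLI1 against control (vertical axis) for each histone gene that was tested and had a count in both libraries, by histone type and cell line; filled points are genes called at more than 2-fold and bars are medians of the points drawn. Most points lie below 0 in U87MG, and 6 of the 9 H4 points lie above 0 in U251MG.

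The shared test asked which genes differed in the same way in both lines. All 4 libraries entered 1 quasi-likelihood fit in edgeR with a term for cell line, so that the lines stand in for replicates and 1 residual degree of freedom is left. Of 61 histone genes tested, 6 passed an adjusted p of 0.05, and all 6 were lower in shFLI1. Over all 16649 genes tested, 2.14% passed in the lower and 0.919% in the higher direction. At an unadjusted p below 0.05, 28 of the 61 histone genes were lower and 1 was higher, against 8.76% and 7.77% of all genes tested. The count in either direction, 29 in this fit, was 24 with DESeq2 and 20 with total counts as the scaling. For those fits no share of all genes is given, and none was taken over genes with as many reads. The shared log2 fold change was below 0 for 50 of the 61, against 48.8% of all genes.

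*H2AC25* and *H2BC26* stand head to head on chromosome 1, apart from the other groups, with 230 bases between their start sites. *H2AC25* encodes an H2A and *H2BC26* an H2B. The main RNA of each was deposited under a pair of identifiers with equal counts in each library. In U87MG control these were 394.5 counts each for *H2AC25* and 334.5 each for *H2BC26*. The values below are sums over the identifiers. *H2AC25* (chr1:228457364-228457873) had 68.9 and 28.4 CPM in U87MG control and shFLI1, and 92.4 and 43.98 CPM in U251MG. Both shFLI1 values were below both control values. Its shared log2 fold change was -1.19 ± 0.15 (SE, adjusted p = 0.00417, edgeR's quasi-likelihood test). *H2BC26* (chr1:228458103-228458558) had 58.4 and 24.6 CPM in U87MG, and 84.6 and 48.2 CPM in U251MG, with a shared log2 fold change of -1.04 ± 0.16 (SE, adjusted p = 0.0131, edgeR's quasi-likelihood test). The log2 fold change of *H2AC25* less that of *H2BC26* was -0.03 in U87MG and -0.26 in U251MG.

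*H2BC21*, an H2B gene on chr1:149884459-149886682 with a poly(A) signal far beyond its stem-loop, had the most counts of the H2B genes in both control libraries, while *H2BC12* had more than it in both shFLI1 libraries. Its levels were 280.6 and 165.0 CPM in U87MG control and shFLI1, and 360.2 and 195.8 CPM in U251MG. Both shFLI1 values were again below both controls, with log2 fold changes of -0.77 and -0.88, short of 2-fold. The shared value was -0.84 ± 0.15 (SE, adjusted p = 0.0239, edgeR's quasi-likelihood test), and the call was lost with total counts and with no cell line term.

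*H2BC3*, at chr6:26043227-26043713, had few reads, 82 and 41 counts in U87MG control and shFLI1 and 93 and 66 in U251MG. These were 7.16 and 1.84 CPM in U87MG and 5.22 and 2.20 CPM in U251MG, with log2 fold changes of -1.90 (interval -2.54 to -1.40) and -1.21 (interval -1.72 to -0.77). It passed the shared test (shared log2 fold change -1.60 ± 0.33 SE, adjusted p = 0.0378 by edgeR's quasi-likelihood test), and of 8 alternative fits that tested it the call held in 4. It was lost with DESeq2, total counts, TMM over all genes and no cell line term.

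*H3C14*, an H3 gene at chr1:149840687-149841208, passed as well, but its reads cannot be told from those of *H3C15*. Alone it had 110.6 and 32.2 CPM in U87MG control and shFLI1, and 109.3 and 59.8 CPM in U251MG, a shared log2 fold change of -1.33 ± 0.21 (SE, adjusted p = 0.0147, edgeR's quasi-likelihood test). Summed with *H3C15*, the pair had 591 and 413 CPM in U87MG and 717 and 503 CPM in U251MG. The log2 ratio of the pair was -0.52 in U87MG and -0.51 in U251MG. With the near-identical pairs summed before the fit, the pair no longer passed (shared log2 fold change -0.53 ± 0.17 SE, adjusted p = 0.157 by edgeR's quasi-likelihood test), and 5 members passed in all.

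**Figure D3:**
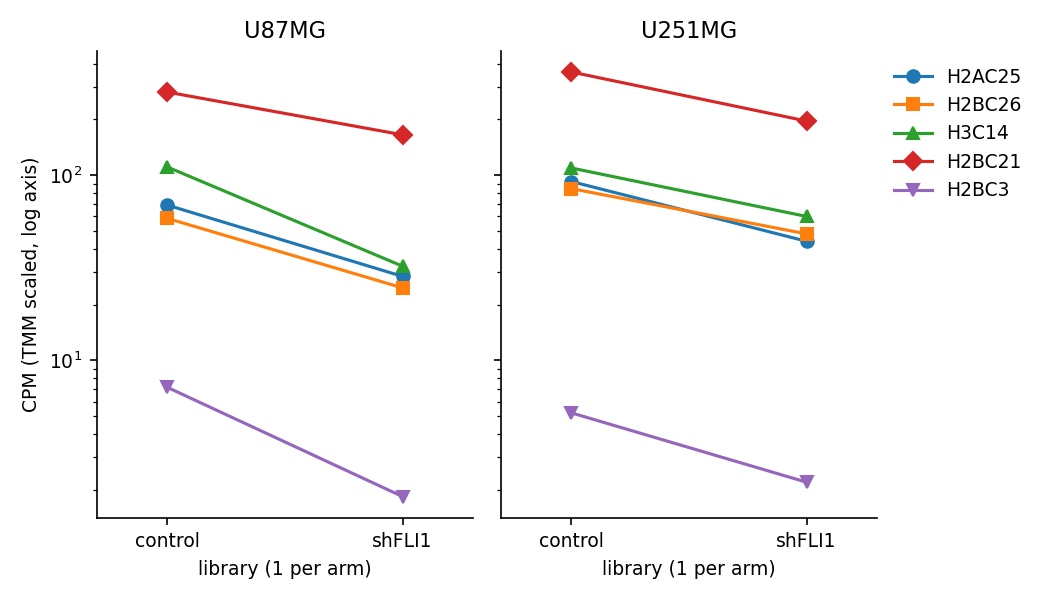
TMM-scaled CPM on a log axis in control and shFLI1 libraries of U87MG (left) and U251MG (right) for 5 histone genes past the shared test, 1 library per point. All 5 lines run downward in both cell lines, *H2AC25* from 68.9 to 28.4 CPM and from 92.4 to 43.98 CPM.

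Among the H1 genes, *H1-2*, *H1-4* and *H1-5* were the most abundant, and they encode the main replication-dependent linker histones. *H1-2* had 398 and 289 CPM in U87MG control and shFLI1, and 351 and 304 CPM in U251MG. *H1-4* had 262 and 193 CPM in U87MG and 266 and 219 CPM in U251MG. *H1-5* ran the other way, with 271 and 289 CPM in U87MG and 354 and 438 CPM in U251MG, so that its log2 fold changes were 0.09 (interval 0.03 to 0.16) and 0.30 (interval 0.26 to 0.35). It did not pass the shared test (adjusted p = 0.639, edgeR's quasi-likelihood test). Per length, in the authors' FPKM, which divides fragments by transcript length and by the mapped reads of a library, *H1-5* made up 24.6% of the H1 total in U87MG control and 33.0% in shFLI1, and 31.0% and 41.3% in U251MG.

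*H1-3* was present in one line alone, with 86 and 53 counts in U87MG control and shFLI1 and 0 counts in both U251MG libraries. Its log2 fold change in U87MG was -1.62 (interval -2.18 to -1.15). *H1-10* had a shared log2 fold change of -0.50 ± 0.14 (SE, adjusted p = 0.102, edgeR's quasi-likelihood test). Its antisense neighbour *H1-10-AS1* had 9.17 and 10.0 CPM in U87MG and 9.37 and 13.8 CPM in U251MG, and whether counting used the strand is not given in the sources used here.

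H2A was led by *H2AC18* in the group on chromosome 1. *H2AC18* had 791 and 463 CPM in U87MG control and shFLI1, and 938 and 658 CPM in U251MG. Its copy *H2AC19* was given 0 and 482 counts in U87MG and 220 and 224 counts in U251MG, which set against a floor of 3 counts per library is at least 82.7-fold higher in U87MG shFLI1. The reads of the copies cannot be told apart, and together they had 791 and 485 CPM in U87MG and 951 and 666 CPM in U251MG, log2 ratios of -0.71 and -0.51. The pair did not pass the shared test (adjusted p = 0.119, edgeR's quasi-likelihood test on summed pairs). *H2AC20* had 210 and 135 CPM in U87MG and 353 and 263 CPM in U251MG. *H2AC11*, by contrast, differed little, with 239 and 209 CPM in U87MG and 277 and 276 CPM in U251MG. Of the 16 H2A genes, 14 were below 0 in U87MG and 12 in U251MG.

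Of the H2B genes, all 17 tested were below 0 in U87MG, and 12 of 16 were in U251MG. *H2BC17* had 212 and 130 CPM in U87MG control and shFLI1, and 255 and 212 CPM in U251MG. *H2BC12* had 189 and 176 CPM in U87MG and 262 and 234 CPM in U251MG. Per length *H2BC17* was the highest H2B gene in U87MG control (15.3% of the H2B total) and *H2BC21* was much lower (2.16%), since its transcript is long. *H2BC12* was deposited as more than one RNA. The more abundant RNA had 179 and 163 CPM in U87MG and 218 and 205 CPM in U251MG, and the next had 10.0 and 12.5 CPM in U87MG and 43.5 and 28.6 CPM in U251MG.

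In H3, the genes with the highest mean CPM over the 4 libraries were *H3C15*, *H3C10* and *H3C7*, and the order below *H3C15* differed between libraries. *H3C15* had 480.5 and 381 CPM in U87MG control and shFLI1 and 608 and 443 CPM in U251MG, subject to its sharing of reads with *H3C14*. *H3C10* had 330.5 and 189 CPM in U87MG and 364 and 290.3 CPM in U251MG. *H3C7* had 347 and 237 CPM in U87MG and 297 and 250.2 CPM in U251MG. For these 3 genes the shFLI1 value was below the control value in each line.

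*H3C6* was the one histone gene called higher in U251MG. It had 91 and 210 counts in U87MG control and shFLI1, and 102 and 348 counts in U251MG, or 7.95 and 9.44 CPM and 5.72 and 11.6 CPM. The log2 fold change was 0.25 (interval -0.11 to 0.62) in U87MG and 1.01 (interval 0.70 to 1.36) in U251MG, and the shared test was not passed (adjusted p = 0.262, edgeR's quasi-likelihood test). In U251MG both of its RNAs were higher, from 1.93 to 4.32 CPM and from 3.796 to 7.30 CPM.

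The H4 genes had the highest levels per length. The H4 sum was 15491 FPKM in U87MG control and 17329 FPKM in U251MG control, against 9631 and 10297 FPKM for H3, the H4 transcripts being short. *H4C14* and the main RNA of *H4C15* were given equal counts in each library, so the genes are given as a sum, which was 1185 and 771 CPM in U87MG control and shFLI1 and 1446 and 1101 CPM in U251MG. Their log2 ratios were -0.62 (interval -0.65 to -0.59) and -0.39 (interval -0.42 to -0.37), and the pair did not pass the shared test (adjusted p = 0.222, edgeR's quasi-likelihood test on summed pairs). *H4C2* had 309 and 255 CPM in U87MG and 211 and 282.5 CPM in U251MG. It was lower in shFLI1 in U87MG (log2 fold change -0.28, interval -0.34 to -0.22) and higher in U251MG (0.42, interval 0.36 to 0.48). In all, 11 histone genes had counting intervals below 0 in U87MG and above 0 in U251MG, as did 3.87% of all genes with a count in every library. That background includes genes with few reads, whose intervals are wider, and no share over genes with as many reads was taken. *H4C9*, *H4C12* and *H4C13* had at most 3 counts in any library.

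Summed levels by location follow. The largest group, 31 genes on chromosome 6 from 25.73 to 26.29 Mb, summed to 4419 CPM in U87MG control and 3521 CPM in shFLI1, but to 3716 and 3590.5 CPM in U251MG. Its log2 ratios were -0.33 (interval -0.34 to -0.31) and -0.05 (interval -0.06 to -0.04). The second group on that chromosome, 20 genes from 27.13 to 27.89 Mb, had log2 ratios of -0.31 and -0.12. The 11 genes on chromosome 1 from 149.78 to 149.89 Mb, which include the near-identical pairs, had -0.59 (interval -0.61 to -0.57) and -0.45 (interval -0.46 to -0.44). The lone pair *H2AC25* and *H2BC26* had -1.26 and -0.94. In U251MG, 14 of 27 genes tested in the largest group were below 0, compared with 9 of 11 in the group on chromosome 1. Differences between groups of genes were not tested.

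**Figure D4:**
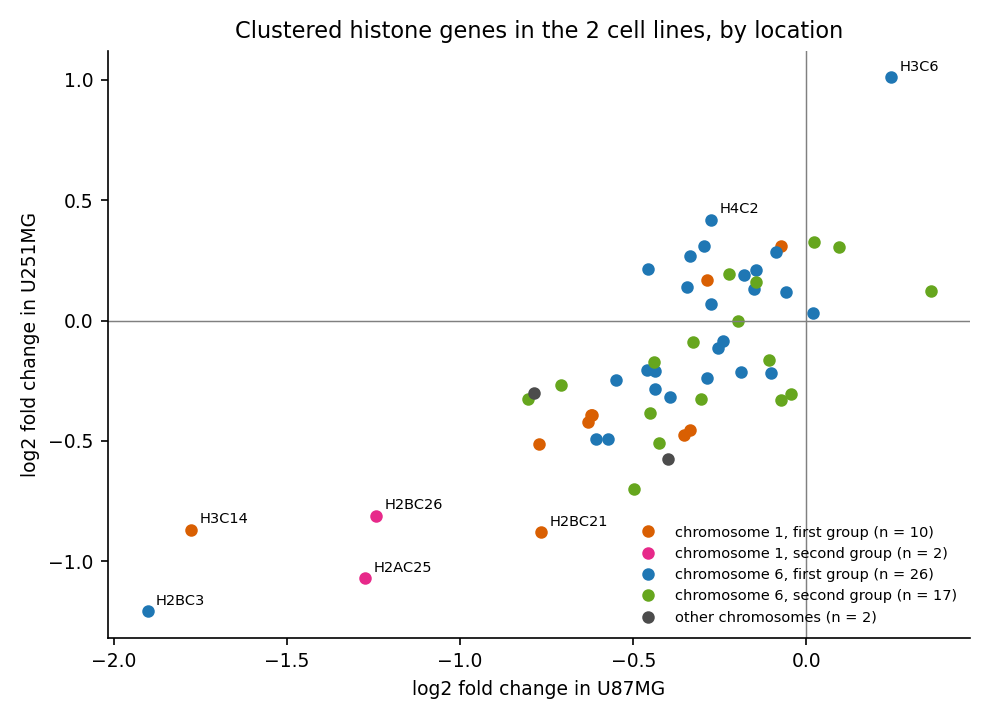
Log2 fold change in U87MG (horizontal axis) against that in U251MG (vertical axis) for 57 histone genes tested in both lines and counted in every library, coloured by location; grey lines mark 0. *H2BC3*, *H2AC25*, *H2BC26*, *H3C14* and *H2BC21* lie in the lower left, and the upper left holds genes that are lower in U87MG and higher in U251MG, such as *H4C2* (-0.28 and 0.42).

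Head-to-head genes had log2 fold changes that were close in some pairs and apart in others. There were 13 divergent pairs with fewer than 1000 bases between their start sites, and 11 of them joined an H2A and an H2B gene over 194 to 248 bases. The pair *H3C4* and *H2BC7* has the same start sites as *H2AC7* and *H2BC7*, since the annotated span of *H3C4* holds all of *H2AC7*. *H2AC7* and *H2BC7* had nearly equal log2 fold changes, -0.24 and -0.26 in U87MG and -0.08 and -0.11 in U251MG. *H2BC11* and *H2AC11* differed, with -0.50 and -0.20 in U87MG and -0.70 and -0.0026 in U251MG. *H2BC4* and *H2AC6* were at -0.09 and -0.39 in U87MG and at 0.29 and -0.32 in U251MG.

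The promoters held motifs usual for histone genes. RefSeq entries of 300 bases (GRCh38.p14, 250 before and 50 after the start) were matched for 61 of the 67 genes, and both strands were searched. TATAAA stood in 67.2% of these 61 genes and in 13.99% of all 27305 genes with an entry. CCAAT stood in 85.2% against 39.7%, in every H2A, H2B and H3 gene with an entry but in 2 of 10 H4 genes. The octamer ATTTGCAT stood in 41.0% against 2.19%, in 10 of 15 H2A and 14 of 18 H2B genes. CCGGAAGT, an 8-base form of the ETS motif, stood in 1 histone gene (1.64%, *H3C6*) and in 4.95% of all genes. The windows of *H2AC25* (chr1:228457824-228458123, minus strand), which also spans the start of *H2BC26*, of *H2BC21* (chr1:149886633-149886932, minus strand) and of *H3C6* (chr6:26224885-26225184, plus strand) are printed because these genes stand out above, with the searched motifs in capitals on either strand.
H2AC25: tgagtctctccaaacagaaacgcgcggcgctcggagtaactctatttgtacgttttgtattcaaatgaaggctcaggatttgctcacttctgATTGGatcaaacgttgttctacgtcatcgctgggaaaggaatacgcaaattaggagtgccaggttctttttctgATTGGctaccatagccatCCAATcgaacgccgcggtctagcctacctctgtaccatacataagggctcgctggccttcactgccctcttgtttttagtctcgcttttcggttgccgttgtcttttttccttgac
H2BC21: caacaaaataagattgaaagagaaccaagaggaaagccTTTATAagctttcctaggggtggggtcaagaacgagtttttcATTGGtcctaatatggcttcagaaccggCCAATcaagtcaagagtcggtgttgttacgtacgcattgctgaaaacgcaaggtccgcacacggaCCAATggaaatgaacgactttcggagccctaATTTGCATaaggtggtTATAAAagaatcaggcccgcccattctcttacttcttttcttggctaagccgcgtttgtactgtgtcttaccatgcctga
H3C6: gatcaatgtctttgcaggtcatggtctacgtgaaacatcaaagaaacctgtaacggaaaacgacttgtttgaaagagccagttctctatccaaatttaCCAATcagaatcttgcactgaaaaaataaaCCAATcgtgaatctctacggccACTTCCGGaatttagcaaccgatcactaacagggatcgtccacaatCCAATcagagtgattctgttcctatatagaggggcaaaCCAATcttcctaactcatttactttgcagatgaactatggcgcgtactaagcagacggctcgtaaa
The *H2AC25* window holds the CCAAT motif and no match to the other 3 motifs. The *H2BC21* window holds the TATA motif together with the CCAAT motif and the octamer. The *H3C6* window, 1 of 2 entries for that gene, holds the CCAAT motif and the ETS form.

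Levels in control and shFLI1 cells also differed between the lines. In the same fit, 10 of 61 histone genes passed the test of the cell line at an adjusted p of 0.05, where 18.6% of all genes passed, so that the share of histone genes is near the background. Of the 10, 4 were higher in U251MG (*H2AC17*, *H2AC20*, *H2BC7* and *H2BC26*) and 6 in U87MG (*H1-3*, *H2BC6*, *H2BC13*, *H2BC14*, *H3C1* and *H4C1*). DESeq2 passed 7 of the 10 and not *H1-3*, *H2AC17* and *H2BC14*. *H2BC6*, at chr6:26183761-26184230, had 493 and 642 counts in U87MG control and shFLI1 but 3 and 4 in U251MG (log2 difference, U251MG minus U87MG, -7.88 ± 0.28 SE, adjusted p = 9.53e-06 by edgeR's quasi-likelihood test). *H1-3* was at least 44.6-fold lower in U251MG control than in U87MG control, against the floor of 3 counts per library. *H2BC7* had 18.4 and 15.4 CPM in U87MG and 37.1 and 34.3 CPM in U251MG. The U251MG values were higher in both arms (adjusted p = 0.00327, edgeR's quasi-likelihood test).

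**Figure D5:**
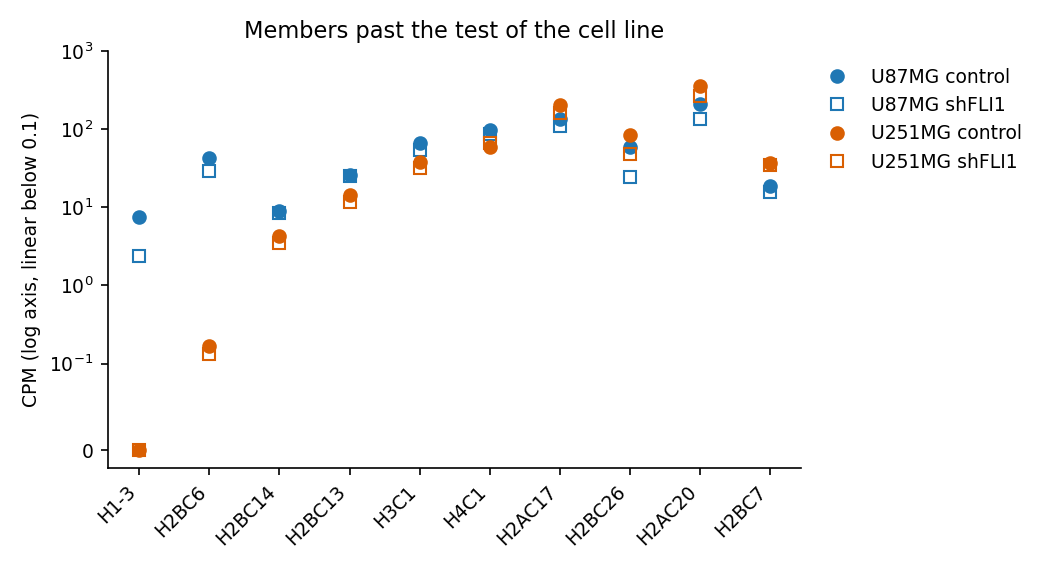
TMM-scaled CPM in the 4 libraries for the 10 histone genes past the test of the cell line, on an axis that is logarithmic above 0.1 and linear below. *H1-3* and *H2BC6* have U251MG points at 0 and near 0.1 to 0.2 CPM, and the other 8 genes differ less between the lines.

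Genes that serve the histone supply were followed from lists. Of 43 S phase genes, 29 were below 0 in U87MG and 39 in U251MG, against 44.4% and 45.6% of all genes tested. The medians were -0.14 and -0.31. In the shared test 2 of the 43 passed, both lower, where 2.14% of all genes tested passed in the lower direction. These were *CDCA7*, a cell division cycle gene (shared log2 fold change -0.96 ± 0.17 SE, adjusted p = 0.0246), and *RRM2*, a ribonucleotide reductase subunit (-0.78 ± 0.17 SE, adjusted p = 0.0432, both by edgeR's quasi-likelihood test). The sums of the list, 3384 and 2991 CPM in U87MG control and shFLI1 and 3855 and 3124 CPM in U251MG, were lower in shFLI1 as the histone sums were, and its part in them was not tested. By flow cytometry the paper reports more cells in S phase in both lines after *FLI1* knockdown, a share that RNA levels do not measure. Of 24 genes for the transcription and 3′ processing of histone mRNA, 10 were below 0 in U87MG and 17 in U251MG, with medians of 0.13 and -0.13. *E2F1*, a transcription factor of S phase entry, was the 1 that passed the shared test, lower at -0.75 ± 0.15 (SE, adjusted p = 0.0371, edgeR's quasi-likelihood test). *CASP8AP2*, which encodes the histone processing factor FLASH, lay on the other side of 0, with a shared log2 fold change of 0.43 ± 0.16 (SE, adjusted p = 0.228, edgeR's quasi-likelihood test). *SLBP* had 85.9 and 80.8 CPM in U87MG control and shFLI1 and 68.2 and 50.3 CPM in U251MG.

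Of 23 histone chaperone genes, 2 passed the shared test in opposite directions, where 2.14% of all genes tested passed lower and 0.919% higher. *ATRX*, which deposits H3.3 together with *DAXX*, was higher at 0.92 ± 0.15 (SE, adjusted p = 0.0153), and *ASF1B*, a chaperone of new H3 and H4, was lower at -0.70 ± 0.14 (SE, adjusted p = 0.0343, both by edgeR's quasi-likelihood test). Of 10 replacement histone genes 9 were in the table and 8 could be tested, of which 0 passed the shared test by edgeR or by DESeq2 and 0 had an unadjusted p below 0.05 by edgeR. The largest shared differences were those of *H2AX* (-0.30 ± 0.15 SE) and *H3-3A*, an H3.3 gene (0.25 ± 0.17 SE). A list of small and structured RNAs that lack a poly(A) tail gives only a partial view of RNA carried over on the beads. Only 11 of the 56 listed were in the table, and they summed to 38.8 and 33.5 CPM in U87MG control and shFLI1 and to 86.1 and 64.5 CPM in U251MG. Of the 5 tested, 3 were below 0 in U87MG and 4 in U251MG, and only 3 had a shared log2 fold change below 0. The largest shared differences were those of *RNU4-1* and *RNU2-1*, -0.73 ± 0.19 and -0.65 ± 0.19 (SE, adjusted p = 0.0916 and 0.122, edgeR's quasi-likelihood test). These sums were thus lower in shFLI1 in both lines, as the histone sums were, and their part in the histone sums was not tested.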

How the data were processed

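Poly-T selected RNA of 4 libraries, 1 per arm and cell line, had been sequenced as read pairs, and the authors used HISAT2 for alignment and StringTie for FPKM (per kilobase of transcript, scaled to mapped fragments). The labels name GRCh38.p13. The deposited table gives an estimated count, not normalized, and the authors' FPKM for each of 185042 linear RNAs. A further 31346 circular RNAs were not used, and the counting tool is not given in the sources used here. A further 10 value columns (TPM and means) were not used. The estimated counts were summed over gene identifiers and rounded to whole numbers. The sources do not say that libraries came from separate cultures, so p-values measure only the spread between these libraries.

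Analyses used R 4.3.3, edgeR 4.0.16 and DESeq2 1.42.0. Counts were scaled by TMM; fold changes used a prior count of 2. Intervals are 95% Clopper-Pearson intervals of read proportions, and they and the floor of 3 counts cover counting error only, since PCR reads are not independent molecules. The shared test and the cell line test came from 1 edgeR quasi-likelihood fit with terms for cell line and arm on genes kept by filterByExpr, with Benjamini-Hochberg adjustment over all of them. Standard errors are the absolute log2 fold change divided by the square root of F. Functions were tested on simulated counts.

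Members and lists were chosen with earlier results of these data known. Values for every library were given for the 3 most abundant members of each type, members called in both lines, the 3 called highest and lowest in each line, and those past the shared test; of each list, the 2 genes with the largest shared difference were named. *SLBP*, the other glioblastoma markers, *H1-10*, the divergent pairs and the members past the cell line test were added after their values were seen. The values of 1 member, and an alternative built on it, are not reported here. Stem-loops were read from the genome, and promoters from RefSeq.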

Additional observations from a re-analysis of the deposited data

Results flagged for a closer look

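A group of 11 histone genes was flagged because each was lower in shFLI1 in U87MG and higher in U251MG, with counting intervals that excluded 0 in both lines. Over all genes with a count in every library and tested in both lines, 3.87% behaved so. Many reads narrow an interval, and no share over genes with as many reads as these 11 was taken. The difference between the lines was not tested, since each line has 1 library per arm. The log2 fold change in U251MG exceeded that in U87MG by 0.70 for *H4C2*, 0.67 for *H3C4*, 0.61 for *H2AC4*, 0.60 for *H2BC9* and 0.48 for *H2BC10*. For *H2AC21* the excess was 0.46, for *H2AC12* 0.41, for *H4C1* 0.37, for *H4C3* 0.36, for *H4C4* 0.35 and for *H4C8* 0.28. All but *H2AC12* and *H2AC21* lie in the largest group on chromosome 6. The directions held for the 11 genes with DESeq2 size factors and with TMM without the 10 most abundant genes, and with total counts *H4C3* and *H4C8* were no longer below 0 in U87MG. The span of *H3C4* holds all of *H2AC7*.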

How the results depend on the processing

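The summed log2 ratio kept its sign under every alternative run. In U87MG it was -0.46 with DESeq2 size factors, -0.27 with total counts, -0.34 with TMM without the 10 most abundant genes, -0.33 with FPKM at either pseudocount and -0.41 without *H2AC18*. In U251MG the same alternatives gave -0.27, -0.18, -0.22, -0.14 and -0.23. At 1.5-fold, 16 genes were called in U87MG and 9 in U251MG, in place of 7 and 4. Of these, 15 and 8 were lower, against 8.64% and 7.38% of all genes, and 1 in each line was higher, against 12.3% and 8.45%. In U251MG the *H3C6* call was lost with DESeq2 size factors (log2 fold change 0.99), and the *H2AC25* call with total counts (-0.995) and FPKM (-0.994 at a pseudocount of 1). The shared test passed 14 histone genes when genes with at least 1 count in any library were kept (2.99% of all genes passed) and 0 without the cell line block (0 of all genes), where 9 had an unadjusted p below 0.05. DESeq2 with the block passed 6 (2.43% of all), with *H2AC18* in place of *H2BC3*. Total counts passed 4 (2.19% of all), without *H2BC21* and *H2BC3*. The cell line test passed 2 without the knockdown term (3.19% of all genes), in place of 10, and 7 with DESeq2 (10.9%), which lost *H1-3*, *H2AC17* and *H2BC14*. With TMM factors over all genes, chosen after seeing the data, 5 histone genes passed the shared test (2.24% of all) and *H2BC3* was lost. Over the other alternatives with the block, adjusted p reached at most 0.0153 for *H2AC25*, 0.032 for *H2BC26*, 0.0296 for *H3C14*, 0.0555 for *H2BC21* and 0.11 for *H2BC3*. The value for *H3C14* leaves out the fit with near-identical pairs summed, which did not test that gene alone. There its pair with *H3C15* did not pass (adjusted p = 0.157, edgeR's quasi-likelihood test). No replicate could be left out, since each arm of a cell line has 1 library. Depth limits *H2BC3*, *H1-3*, *H3C6* and the members with fewer than 10 counts.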
